A study of Mus musculus with 74 samples.

Results

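The genes described are 9 transporters of the liver, 5 organic anion uptake carriers (Slco1a1, Slco1a4, Slco1b2, Slco2a1 and Slco2b1) and 4 export pumps of the ABCC family (Abcc2, Abcc3, Abcc4 and Abcc6). They were chosen by symbol. All 9 are among the 14583 genes of the RNA-seq table, and every ChIP-seq peak whose nearest gene was one of the 9 was taken from each tag count table, between 35 and 126 peaks of 27842 to 115042 in a table. The samples were livers of C57BL/6 mice aged 8 to 12 weeks on normal chow. Gps2 LKO mice carry floxed Gps2 alleles and Cre under the albumin promoter, which is active in hepatocytes, and their WT controls carry the floxed alleles without Cre. Ncor LKO and Smrt LKO mice lack the gene in the liver and have WT controls of their own lines, and Ppara KO mice (tm1Gonz allele) lack the gene in every tissue. RNA was measured in 4 Gps2 LKO and 4 WT libraries. ChIP-seq was done for H3K27ac in the Gps2 line (2 against 2 libraries) and in the Ncor and Smrt lines (3 against 3 each), for H3K4me3 in the Gps2 line (2 against 2), and for the corepressor NCOR, the nuclear receptor PPARα and GPS2 itself in 2 or 3 libraries a group. GPS2 and RNA polymerase II (PolII) in the Gps2 line had 1 library a group. Several ChIPs were pooled into each library, and the methods of the study call all replicates biological. The labels do not tie libraries to animals, so p-values measure the spread between these libraries.

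Hepatocytes clear bile acids, bilirubin conjugates, steroid hormone conjugates and many drugs from blood. Organic anion transporting polypeptides, encoded by the Slco genes, take these compounds up across the sinusoidal membrane. ABCC2 pumps conjugates across the canalicular membrane into bile, whereas ABCC3 and ABCC4 sit on the sinusoidal side and return conjugates and bile acids to blood, a route known to widen when bile flow is blocked. ABCC6 is a sinusoidal ABC transporter whose loss in human causes pseudoxanthoma elasticum. GPS2, NCOR and SMRT are subunits of an HDAC3 corepressor complex that nuclear receptors such as PPARα recruit to chromatin. H3K27ac marks active enhancers and promoters, and H3K4me3 marks active promoters.

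The RNA libraries held 13.2 to 20.1 M counts and the ChIP-seq libraries 7.9 to 46.1 M tags. Gps2 RNA was 255 ± 11.3 normalized counts in WT and 177 ± 30.6 in LKO (SD, n = 4 each), and lower in 4 of 4 LKO libraries. Some libraries stood apart. LKO replicate 2 of the RNA differed from the other LKO libraries by a chi-square of 19.8 to 29.1 per gene, and LKO replicate 3 from replicates 1 and 4 by 9.87 and 9.14, against 1.53 between replicates 1 and 4 and 1.69 to 2.53 within WT. The 3 WT libraries of PPARα in the Gps2 line differed by less than the sampling noise (chi-square 0.923 to 0.937 per peak) and were counted as 1 sample, so that p-values for PPARα in this line take their spread from the 3 LKO libraries alone. In the Ncor line, WT replicate 3 of the GPS2 ChIP had 3.07% of its tags in peaks, near the LKO range of 2.45 to 3.15% and below the other WT libraries at 8.23 and 7.82%. All 6 H3K27ac libraries of the Smrt line had 0 tags in Y chromosome peaks, although the methods of the study describe all mice as male, whereas those of the Ncor line had 306 to 371 per 10 M tags (M, mega, so that 10 M is 10000000).

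The genes lie on 6 chromosomes of the mm9 build, and 3 of them form a cluster on chromosome 6, Slco1b2 at chr6:141578039-141635167 on the plus strand, and Slco1a4 at chr6:141753961-141804720 and Slco1a1 at chr6:141855803-141895483 on the minus strand. The results on PPARα and NCOR below turn on a few sites, shown here as the 200 bases around the centre of the PPARα peak on the plus strand of mm9, because NCOR was called lower there in Ppara KO liver (Abcc4, Slco1a4 and Slco2a1), because PPARα had its smallest adjusted p there in Ppara KO (Abcc2), or because they hold the closest matches to the PPAR response element. Capitals in the sequences of Slco1a4 and Slco2a1 mark the nuclear receptor element AGGTCA or its reverse complement, which the Abcc2 and Abcc4 windows do not hold, and capitals in the Abcc3 windows mark a stretch that differs at 1 letter from the DR1 element, which is AGGTCA repeated after 1 free base.
Abcc4, intergenic, chr14:119115718-119115917, at -10376 bp from the start site: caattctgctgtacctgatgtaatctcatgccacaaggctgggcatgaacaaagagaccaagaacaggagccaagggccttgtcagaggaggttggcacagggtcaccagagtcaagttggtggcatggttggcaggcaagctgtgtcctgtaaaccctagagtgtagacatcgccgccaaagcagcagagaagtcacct
Slco1a4, intergenic between Slco1a4 and Slco1a1, chr6:141824318-141824517, at -19676 bp: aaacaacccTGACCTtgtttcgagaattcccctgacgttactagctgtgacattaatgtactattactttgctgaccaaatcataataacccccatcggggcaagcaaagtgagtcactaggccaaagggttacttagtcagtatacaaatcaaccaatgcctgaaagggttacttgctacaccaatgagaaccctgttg
Slco2a1, intergenic, chr9:102878328-102878527, at -32392 bp: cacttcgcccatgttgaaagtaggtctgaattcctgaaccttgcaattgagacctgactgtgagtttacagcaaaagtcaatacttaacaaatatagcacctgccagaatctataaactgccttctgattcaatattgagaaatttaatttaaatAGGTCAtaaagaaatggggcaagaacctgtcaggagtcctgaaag
Abcc2, intron, chr19:43871687-43871886, 14988 bp downstream of the start site: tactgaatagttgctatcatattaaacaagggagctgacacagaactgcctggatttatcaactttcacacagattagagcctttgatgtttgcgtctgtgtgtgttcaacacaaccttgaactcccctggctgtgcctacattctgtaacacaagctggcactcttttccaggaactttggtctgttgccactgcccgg
Abcc3, intron, chr11:94240570-94240769, 13621 bp downstream of the start site: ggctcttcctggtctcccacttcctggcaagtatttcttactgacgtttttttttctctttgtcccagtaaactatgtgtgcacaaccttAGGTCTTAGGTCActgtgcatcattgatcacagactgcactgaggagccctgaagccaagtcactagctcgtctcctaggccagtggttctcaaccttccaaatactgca
Abcc3, intergenic, chr11:94266352-94266551, at -12161 bp: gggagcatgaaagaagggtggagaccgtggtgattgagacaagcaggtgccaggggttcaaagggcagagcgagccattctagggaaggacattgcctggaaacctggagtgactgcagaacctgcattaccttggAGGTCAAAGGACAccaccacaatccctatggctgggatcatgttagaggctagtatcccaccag
AGGTCA, searched on both strands, was found in 39 of the 109 PPARα peak windows of the 9 genes (35.8%) and in 31.8% of all 102417 windows. DR1 with at most 2 mismatches, which overlaps the shorter element, was found in 17 of the 109 (15.6%) and in 13.3% of all windows.

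The RNA of the transporters did not move one way in Gps2 LKO liver. By edgeR's quasi-likelihood test with Benjamini-Hochberg adjustment over 12220 genes, 2 of the 9 rose, the sinusoidal export pumps Abcc3 and Abcc4, and 3 fell, the canalicular pump Abcc2 and the uptake carriers Slco1a1 and Slco2a1. Across all genes tested, 23.4% were called higher and 21.4% lower, 44.8% in all. The median change of the 9 was 0.02 on the log2 scale, against 0.03 for all genes.

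Slco1a1 encodes a carrier of sulfated steroids and bile acids that is known to be higher in male than in female mouse liver. Its normalized counts were 11386, 11636, 11853 and 11573 in the WT libraries and 8489, 9564, 7973 and 8902 in the LKO libraries. Every LKO library lay below every WT library. The fall was 24.4% (log2 fold change -0.40, SE 0.06, adjusted p = 1.8e-04). Slco2a1, the prostaglandin transporter, was at 1588, 1614, 1540 and 1483 in WT and at 1139, 1397, 1024 and 1023 in LKO, again with no overlap, and fell by 0.43 on the log2 scale (SE 0.09, adjusted p = 0.0023). The remaining uptake carriers were not called. Slco1b2, the main hepatic carrier of unconjugated bile acids and statins, averaged 22023 ± 743 counts in WT and 23544 ± 622 in LKO (SD, n = 4 each), a log2 fold change of 0.10 with an adjusted p of 0.11, although all 4 LKO libraries lay above the WT range. Slco1a4, a carrier known to be induced by the xenobiotic receptor PXR, was at 1065 ± 29.2 and 1059 ± 60.7 (adjusted p = 0.99), and Slco2b1 at 2792 ± 126 and 2868 ± 289 (adjusted p = 0.61).

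Among the export pumps, Abcc2 had 10529, 11585, 11396 and 10792 normalized counts in WT and 4257, 9632, 6619 and 4459 in LKO. All LKO libraries were below WT, but they spread over a wide range, with replicate 2 close to the WT level. The log2 fold change was -0.82 (SE 0.19, adjusted p = 0.0043), and -1.13 without LKO replicate 2. Abcc3 had 3410, 3417, 3520 and 3357 counts in WT and 3891, 5145, 4473 and 3837 in LKO, all above WT, with a log2 fold change of 0.35 (SE 0.08, adjusted p = 0.0046), or 0.24 without LKO replicate 2. Abcc4 was scarcely expressed, at 15.9, 11.4, 30.5 and 33.5 counts in WT and 37.8, 50.0, 46.1 and 47.0 in LKO. The groups did not overlap, and the log2 fold change was 1.00 (SE 0.26, adjusted p = 0.0076). Abcc6 was at 2698 ± 91.0 in WT and 2719 ± 327 in LKO (SD, n = 4 each), and its LKO libraries lay on both sides of the WT range (adjusted p = 0.84). Without LKO replicate 2 the same 5 genes passed the test in the same directions, Slco1a1 at -0.47, Slco2a1 at -0.56 and Abcc4 at 0.92 on the log2 scale, whereas the small differences of Slco2b1 and Abcc6 changed sign. The number called higher rose from 2 to 5 when a trend of the changes with exon length was removed, by the addition of Slco1b2 (0.14, adjusted p = 0.01), Slco2b1 (0.21, adjusted p = 0.0015) and Abcc6 (0.18, adjusted p = 0.007), and the same 3 genes fell.

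**Figure D1:**
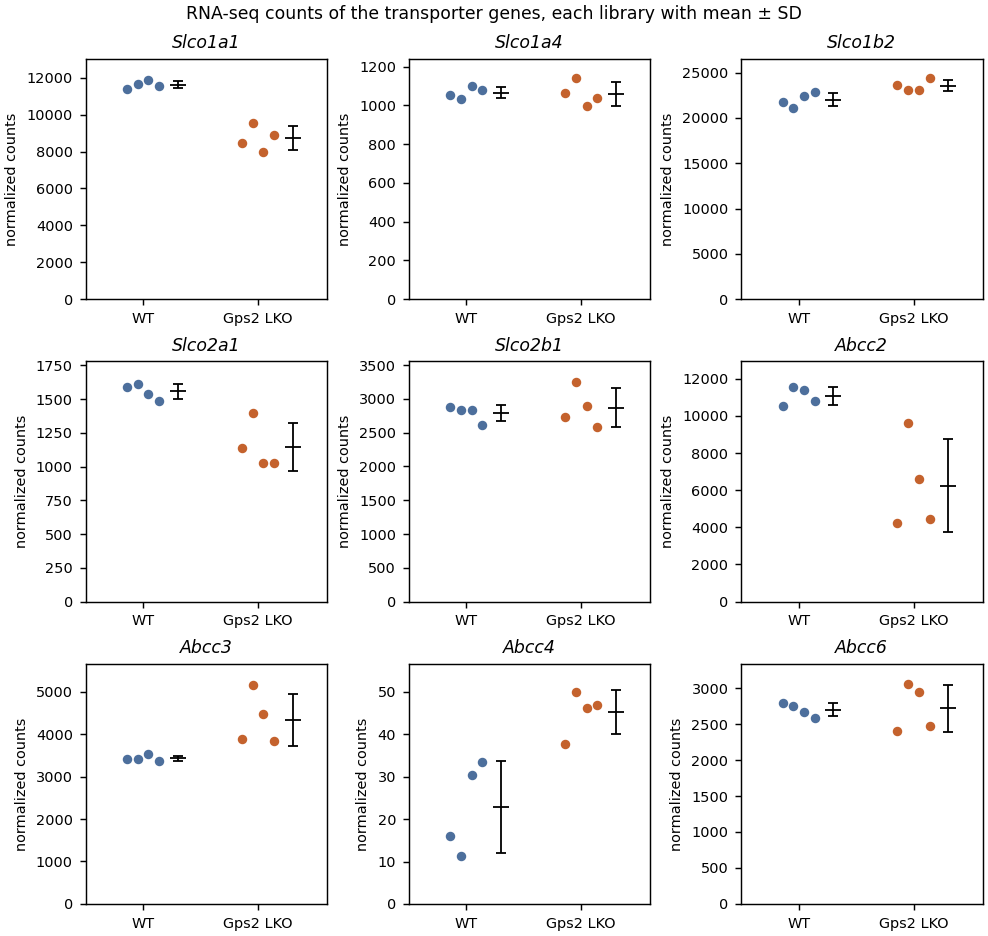
RNA-seq of the 9 transporters, with normalized counts on the y axis from 0, 1 point for each library of WT (blue, n = 4) and Gps2 LKO (orange, n = 4), and the mean ± SD as a bar beside the points. Slco1a1, Slco2a1 and Abcc2 show all LKO libraries below WT and Abcc3, Abcc4 and Slco1b2 all above, and Abcc2 shows the LKO spread from 4257 to 9632 counts. How often the groups are apart among all genes was not counted.

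Levels per length, in reads per kilobase of exon scaled to library size (RPKM), ordered the genes in WT from Slco1b2 (421 ± 14.2, SD, n = 4) over Slco1a1 (184 ± 3.06), Abcc2 (130 ± 5.81), Abcc3 (43.2 ± 0.859), Slco2b1 (35.3 ± 1.59), Abcc6 (34.3 ± 1.16), Slco2a1 (24.3 ± 0.902) and Slco1a4 (17.6 ± 0.482) to Abcc4 (0.244 ± 0.116). Slco2b1 and Abcc6 differed by less than their spread. In LKO liver Abcc2 was at 73.0 ± 29.2 and Abcc3 at 54.6 ± 7.70 RPKM. Abcc4 remained the lowest, at 0.484 ± 0.0557. Over the 8 libraries and 8561 genes averaging 100 or more normalized counts, the genes whose log2 counts followed Abcc4 most closely were Hnrnph1 (Pearson r = 0.987), Alkbh1 (0.946) and Adgrl4 (0.936). Those closest to Abcc2 were Masp1 (0.999), Sbno1 (0.999) and Vps13c (0.998). Each r is a description over the same 8 libraries in 2 groups, so a gene that changes between the groups or deviates in LKO replicate 2 contributes to it.

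Of the 8 other Slco and Abcc genes in the table, 6 were tested, of which 3 were higher and 1 lower. With the exon length trend removed, 5 were higher and 1 lower. The shares of all genes were 23.4% higher and 21.4% lower, here and for the lists that follow. Slco3a1, a prostaglandin and thyroid hormone carrier, rose by a log2 fold change of 0.83 (adjusted p = 0.0029), Abcc12 by 0.90 (adjusted p = 0.028) and Abcc9, a subunit of ATP-sensitive potassium channels, by 0.34 (adjusted p = 0.02), and Abcc10 fell by 0.44 (adjusted p = 0.0058). Among 15 tested transporters of bile acids, lipids and drugs outside both families, 6 were higher and 3 lower. The drug efflux pump Abcb1a rose by 1.31 (adjusted p = 7.6e-06) and the sterol exporter subunit Abcg5 by 0.50 (adjusted p = 1.0e-05). The organic anion carrier Slc22a7 fell by 0.99 (adjusted p = 2.8e-06) and the canalicular pump Abcg2 by 0.96 (adjusted p = 9.8e-08). The bile salt carriers Slc10a1 and Abcb11 were not called, at log2 fold changes of 0.17 (adjusted p = 0.16) and -0.08 (adjusted p = 0.49).

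Transcription factors known to control these transporters changed in both directions, 4 of 14 higher and 6 lower, against 23.4% and 21.4% of all genes. With the exon length trend removed, 4 were higher and 4 lower. Higher were the xenobiotic receptors Nr1i3 (CAR, 0.47, adjusted p = 1.3e-04) and Nr1i2 (PXR, 0.26, adjusted p = 0.0038), the bile acid responsive repressor Nr0b2 (0.48, adjusted p = 0.0014) and Nfe2l2 (NRF2, 0.18, adjusted p = 0.024). Among the lower were Ahr (-0.50, adjusted p = 2.3e-04), Hnf4a (-0.41, adjusted p = 2.8e-04), Ppara (-0.39, adjusted p = 0.02), Stat5b and Rxra. The bile acid receptor Nr1h4 was not called (0.05, adjusted p = 0.46). Of 6 tested targets of CAR and PXR, 3 were higher and 1 lower, with Cyp2c29 at 1.24 (adjusted p = 1.6e-09), Por at 0.58 (adjusted p = 6.5e-06) and Ces2a at -0.89 (adjusted p = 9.3e-08). Of 8 NRF2 targets, 2 were higher and 4 lower, with Nqo1 at 1.11 (adjusted p = 4.5e-04) and Ephx1 at -0.56 (adjusted p = 2.2e-06). None of 4 AHR targets was called. With the exon length trend removed, 1 AHR target was lower and 0 higher, and 3 NRF2 targets were lower and 2 higher. The counts of CAR and PXR targets stayed the same.

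Signs of other programmes and cell types moved with the groups. Of 7 genes known to be higher in male mouse liver, 6 fell, with a median log2 fold change of -1.48, and all 5 tested female-biased genes rose, with a median of 6.60, their summed counts going from 64.4 to 116 in WT to 17835 to 21704 in LKO. The Y-linked genes Kdm5d, Uty, Ddx3y and Eif2s3y summed to 2701 to 2958 normalized counts in WT and 2721 to 3001 in LKO, and Xist had 1 to 4 reads in WT and 0 to 15 in LKO. Summed markers of stellate cells were 2823 to 2943 in WT and 5255 to 5423 in LKO (6 of 6 higher), those of Kupffer cells 1761 to 1794 and 2228 to 2696 (5 of 6 higher), and those of cholangiocytes 1037 to 1104 and 1452 to 1780 (3 of 5 higher). Summed markers of sinusoidal endothelium were 2804 to 2909 and 2893 to 3272 (2 of 7 higher), and the few counts of lymphocyte markers, none of which was tested, summed to 13.2 to 17.8 in WT and 21.6 to 36.6 in LKO. With the exon length trend removed, 6 of 7 endothelial and 3 of 6 Kupffer cell markers were higher. Hepatocyte markers summed to 1775368 to 1834149 in WT and 2329628 to 2732817 in LKO, led by Alb, with 2 of 6 higher and 1 lower (Apob, -0.82, adjusted p = 1.8e-04). The kidney markers Slc34a1, Umod and Slc22a6 are not among the genes of the table. The part of these shifts in the changes of Slco1a1, Slco2a1, Abcc2, Abcc3 and Abcc4 was not tested. In whole liver, fewer cells of a type and less RNA per cell cannot be told apart.

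GPS2 occupied all 9 loci in WT liver, and few GPS2 tags remained there in the Gps2 LKO library. Summed over the peaks of a gene, the WT library held 32.9 tags per 10 M at Slco1a1 (exact Poisson 95% interval 24.5 to 43.3), 45.8 at Abcc6, 63.9 at Slco1a4, 82.0 at Slco2b1, 136 at Slco1b2 and at Abcc3, 188 at Abcc2, 192 at Abcc4 and 193 at Slco2a1 (172 to 216). The LKO library held 1.35 to 12.2 per 10 M at the 9 loci, and no interval of the LKO library met that of the WT library. The fall was general, with 7.07% of the tags in GPS2 peaks in the WT library and 0.31% in the LKO library. The strongest site was that in the Abcc2 intron printed above, with 102 tags in WT and 1 in LKO. For PolII the intervals of the 2 libraries overlapped at 8 of the 9 loci. At Abcc2 it was 211 tags per 10 M in WT (185 to 239) and 229 in LKO (202 to 258), at Slco1a1 130 (110 to 153) and 126 (107 to 148), and at Abcc3 168 (145 to 193) and 175 (152 to 200). Only at Slco1a4 did the intervals not meet, 179 in WT (156 to 205) against 235 in LKO (209 to 265). These intervals cover counting error only, and with 1 library a group the difference has no replicate check. How often the intervals of GPS2 or PolII are apart among all loci was not counted.

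H3K4me3 in Gps2 LKO liver was called higher at Abcc3, Slco1b2 and Slco1a4, and H3K27ac at none of the 9 genes. For H3K27ac, 0 of 47 tested peaks of the 9 genes passed (8 at an unadjusted p under 0.05, 0 by DESeq2), against 1.21% of all peaks called higher and 0.212% lower. Among all 47108 peaks, 6881 had an unadjusted p under 0.05. Summed over the peaks of a gene, the log2 fold changes ran from 0.01 at Slco1a1 to 0.43 at Abcc3, with the table's median at 0.04, and 0 of 9 loci were called (4 at an unadjusted p under 0.05, 0 by DESeq2), against 1.63% of all loci higher and 0.207% lower. Among all 15930 loci, 2483 had an unadjusted p under 0.05. The sign of the smallest change depended on the scaling: with TMM or RLE scaling, by DESeq2, or without WT replicate 1 or LKO replicate 1, 8 of the 9 were positive. The mark at the peak spanning the Abcc3 promoter was 995 and 1172 tags per 10 M in WT and 1340 and 1601 in LKO. The LKO libraries were both higher, but the adjusted p was 0.12. At the peak spanning the Slco1a1 promoter, which also covers part of the gene, it was 1014 ± 60.1 in WT and 1048 ± 19.7 in LKO (SD, n = 2 each), although Slco1a1 RNA fell.

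H3K4me3 was called higher at 2 of 16 tested peaks, against 0.798% of all peaks, and at 3 of 9 loci, against 0.983% of all loci. At the Abcc3 peak, which spans the promoter (chr11:94228530-94255678), the WT libraries held 439 and 470 tags per 10 M and the LKO libraries 636 and 600, a log2 fold change of 0.44 (SE 0.07, adjusted p = 0.008). At Slco1b2 (chr6:141576795-141593338), H3K4me3 was 1078 ± 0.953 in WT and 1381 ± 79.4 in LKO (SD, n = 2 each, log2 fold change 0.36, adjusted p = 0.019). Slco1a4 was called when its 2 peaks were summed, 407 ± 23.8 against 581 ± 65.9 (0.51, adjusted p = 0.0089). Abcc3 was thus higher in RNA and in H3K4me3, while Slco1a4 had higher H3K4me3 and an RNA level of 1065 against 1059 counts. With TMM scaling 1 peak and 0 loci passed, and by DESeq2 0 peaks and 1 locus. Without WT replicate 1 or WT replicate 2, 1 peak and 0 loci passed, without LKO replicate 1 none did, and without LKO replicate 2 there were 3 peaks and 2 loci.

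Deletion of Ncor or Smrt was compared by H3K27ac. In Ncor LKO liver 1 of 73 peaks was called lower, against 0.801% of all peaks lower and 2.32% higher. It is the peak over the Slco1a1 promoter (chr6:141887054-141898565), with 1334, 1370 and 1189 tags per 10 M in WT and 910, 1000 and 884 in LKO. No library overlapped the other group, and the log2 fold change was -0.48 (SE 0.10, adjusted p = 0.027). The call was lost without any 1 of the WT libraries or without LKO replicate 3, with adjusted p up to 0.13, and was lost with the replicate number as a block. Over the 9 peaks of the Slco1a1 locus the change was -0.37 (adjusted p = 0.057). The main Abcc3 peak was 1074 ± 31.8 in WT and 878 ± 125 in LKO (SD, n = 3 each), not called. The summed H3K27ac of male-biased genes was 9425 to 11997 per 10 M in these WT libraries and 9188 to 10240 in LKO, and its part in the Slco1a1 result was not tested.

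In Smrt LKO liver none of the 73 peaks was called by edgeR (3 at an unadjusted p under 0.05, 0 by DESeq2), and the share of all peaks called was 0% in both directions (4079 at an unadjusted p under 0.05). The Slco1a1 promoter peak held 647, 659 and 104 tags per 10 M in WT and 330, 514 and 385 in LKO, so that WT replicate 3 lay far under the other WT libraries and the groups overlapped. The effects of the deletions were compared directly. At none of the 73 peaks did the Ncor effect differ from the Smrt effect by the interaction test (5 at an unadjusted p under 0.05), against 0.426% of all peaks. At the Slco1a1 promoter peak the difference was -0.28 on the log2 scale with an SE of 0.59. The lines also differed in their controls, with 2104 ± 120 tags per 10 M over the Slco1a1 locus in WT of the Ncor line and 1092 ± 376 in WT of the Smrt line, and 2143 ± 180 and 2646 ± 142 over Slco1a4 (SD, n = 3 each). Cyp2b9, a female-biased gene, held 66.6 to 145 tags per 10 M in the Ncor line and 1608 to 1848 in the Smrt line, Xist 2.93 to 4.92 and 249 to 289. The Smrt line libraries thus lack Y chromosome signal and carry Xist signal, against the stated sex, in WT and LKO alike. Line and this sex-linked pattern cannot be told apart in the comparison of the Ncor and Smrt effects.

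**Figure D2:**
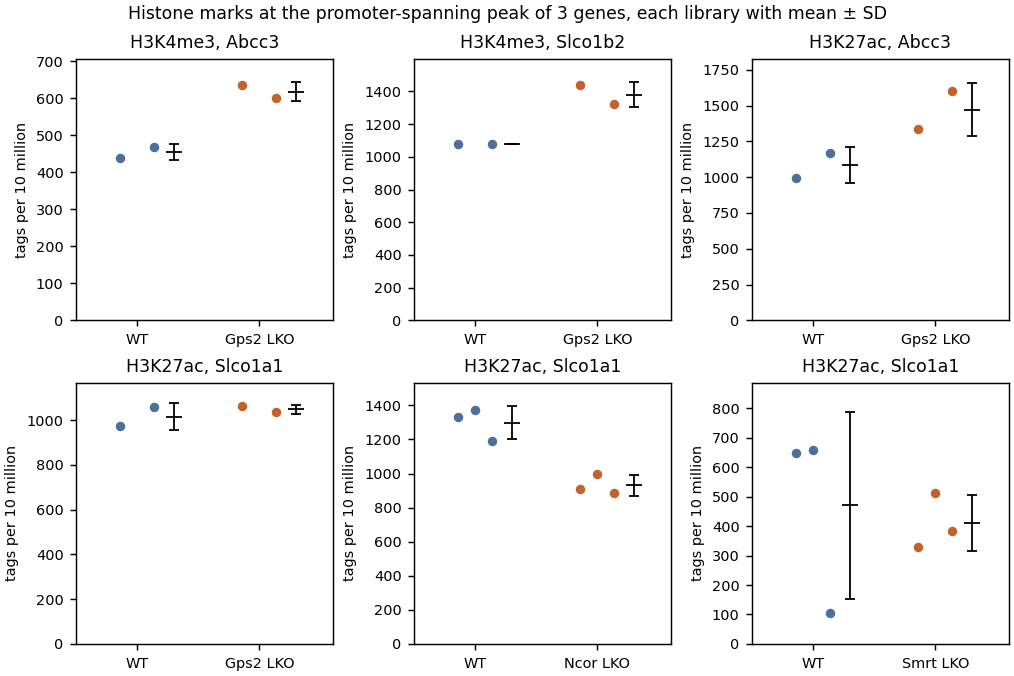
Histone mark ChIP-seq at the peak that spans the promoter, in tags per 10 M on the y axis from 0, 1 point for each WT (blue) and knockout (orange) library, with mean ± SD (n = 2 a group in the Gps2 line, 3 in the Ncor and Smrt lines). H3K4me3 of Abcc3 and Slco1b2 is higher in Gps2 LKO, H3K27ac of Slco1a1 is lower in Ncor LKO, and in the Smrt line 1 WT library at 104 lies far under the others.

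PPARα tags at the transporters were higher in Gps2 LKO liver than in WT, as they were over much of the genome. Of 109 peaks 42 were called higher and none lower, a share of 38.5%, against 21.5% of all peaks called higher and 0.147% lower. All 9 loci were higher, against 58.1% of all loci higher and 0.198% lower. The share of tags that fell in peaks was 19.2 to 21.9% in WT and 28.9 to 32.1% in LKO, and the median change of all loci was 0.56 on the log2 scale. The 9 loci rose by 0.92 at Abcc4, 0.82 at Slco1a4, 0.77 at Abcc3, 0.72 at Slco1a1, 0.63 at Slco2a1, 0.58 at Slco1b2 and Slco2b1, 0.44 at Abcc6 and 0.40 at Abcc2. Relative to the median, Abcc4 was higher by 0.36 and Slco1a4 by 0.27, and Abcc2 and Abcc6 stood at -0.16 and -0.12, so that the direction of Abcc2 and Abcc6 depends on the scaling. With TMM scaling, which centres most peaks, 2 peaks and 1 locus passed, and by DESeq2 none. Without LKO replicate 3, 21 peaks passed, and without WT replicate 3, 25. Without LKO replicate 2, 5 loci passed.

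Among the sites printed above, those of Slco1a4, Abcc4 and Abcc3 were called. The Slco1a4 site held 21.5, 26.6 and 22.5 PPARα tags per 10 M in the WT libraries and 100, 40.7 and 86.2 in the LKO libraries. The 3 WT libraries count as 1 sample, here and at the sites below, so their narrow range is no measure of spread between livers. The lowest LKO library was above them, and the log2 fold change was 1.67 (SE 0.28, adjusted p = 9.6e-07). The Abcc4 site held 70.9, 46.5 and 47.3 in WT and 149, 132 and 112 in LKO (log2 fold change 1.27, SE 0.26, adjusted p = 1.2e-04). In Abcc2, the RNA of which fell, the intronic site held 148, 153 and 156 tags per 10 M in WT against 202, 186 and 151 in LKO, with overlap (0.22, adjusted p = 0.50). The Slco2a1 site held 79.7, 81.7 and 90.2 tags per 10 M in WT against 106, 108 and 100 in LKO (0.31, adjusted p = 0.32), and a weaker site in that gene, 12509 bp downstream of the start, went from 3, 4 and 5 tags to 24, 17 and 48 (2.44, adjusted p = 8.0e-06). The Abcc3 windows with the near match to DR1 were both higher, at 13621 bp downstream by 0.80 (adjusted p = 0.014) and at -12161 bp by 1.04 (adjusted p = 0.013).

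PPARα tags at most of these genes were fewer in Ppara KO liver than in WT, as at loci in general. The call was lower for 20 of 66 peaks, against 27.6% of all peaks lower and 0.0174% higher, and for 7 of 9 loci, against 56.8% of all loci lower and 0.0592% higher, with the table's median at -1.71. The intronic Abcc2 site went from 68 and 61 tags in WT to 5 and 3 in KO, or from 48.1 and 46.7 to 3.43 and 2.20 per 10 M (log2 fold change -4.02, SE 0.33, adjusted p = 3.1e-06). The Slco2a1 site fell from 26.2 and 24.5 to 2.06 and 2.93 per 10 M (-3.31, SE 0.42, adjusted p = 4.1e-05). The Abcc4 site had 8 and 13 tags in WT and 0 and 1 in KO (adjusted p = 0.0095), and the Slco1a4 site 6 and 4 against 1 and 2 (adjusted p = 0.14), tags few enough that counting error is large. Slco1a1 (-0.80, adjusted p = 0.098) and Abcc6 (-0.42, adjusted p = 0.50) were the loci not called. With a filter on low counts 15 of 15 remaining peaks were lower, as were 97.7% of all peaks that remained, so the shares above depend on peaks with few tags. Scaling moved these results strongly. With TMM scaling 3 peaks and 1 locus passed, and the change of the Slco1a4 locus became 0.04. With WT replicate 1 or WT replicate 2 left out, 0 peaks were called, and with KO replicate 1 or KO replicate 2 left out, 17 or 18, while 7 loci passed in each case.

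NCOR in Ppara KO liver was called lower at 4 of 126 peaks, a share of 3.17%, against 2.51% of all peaks lower and 0.136% higher. It was called at none of the 9 loci (1 at an unadjusted p under 0.05, 0 by DESeq2), against 5.83% of all loci lower. The median log2 fold change was -0.32 over all peaks and -0.31 over all loci. The positions of the 4 called peaks gave the Abcc4, Slco1a4 and Slco2a1 sites printed above. At the Abcc4 site NCOR was 50.4, 55.9 and 61.5 tags per 10 M in WT and 28.6, 22.9 and 19.9 in KO. The groups were well apart, and the log2 fold change was -1.23 (SE 0.28, adjusted p = 0.0018). The Slco2a1 site was 115, 126 and 148 in WT and 105, 97.6 and 50.5 in KO (-0.62, adjusted p = 0.034). Relative to the median of all peaks, the change was -0.91 at the Abcc4 site and -0.30 at the Slco2a1 site. The change at Slco2a1 ran from -0.80 to -0.35 (the latter without KO replicate 3) with 1 library left out, and lost its call without WT replicate 1, 2 or 3 or KO replicate 3, with adjusted p up to 0.39. Slco1a4 had 2 neighbouring peaks with few tags, the second beyond the printed window, 5, 14 and 30 in WT against 1, 5 and 5 in KO (adjusted p = 5.6e-04) and 10, 6 and 18 against 1, 1 and 5 (adjusted p = 0.0097). The first lost its call without WT replicate 3, with adjusted p up to 0.34. The second lost it without WT replicate 3, KO replicate 1 or KO replicate 2, with adjusted p up to 0.32. At the Abcc2 intronic site NCOR was not called, at 97.1 ± 8.33 in WT and 93.5 ± 20.2 in KO (SD, n = 3 each, adjusted p = 0.91), although PPARα was lower there in the same KO line. Without WT replicate 3, 1 of the 126 peaks was called, with TMM scaling 2 and by DESeq2 none.

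**Figure D3:**
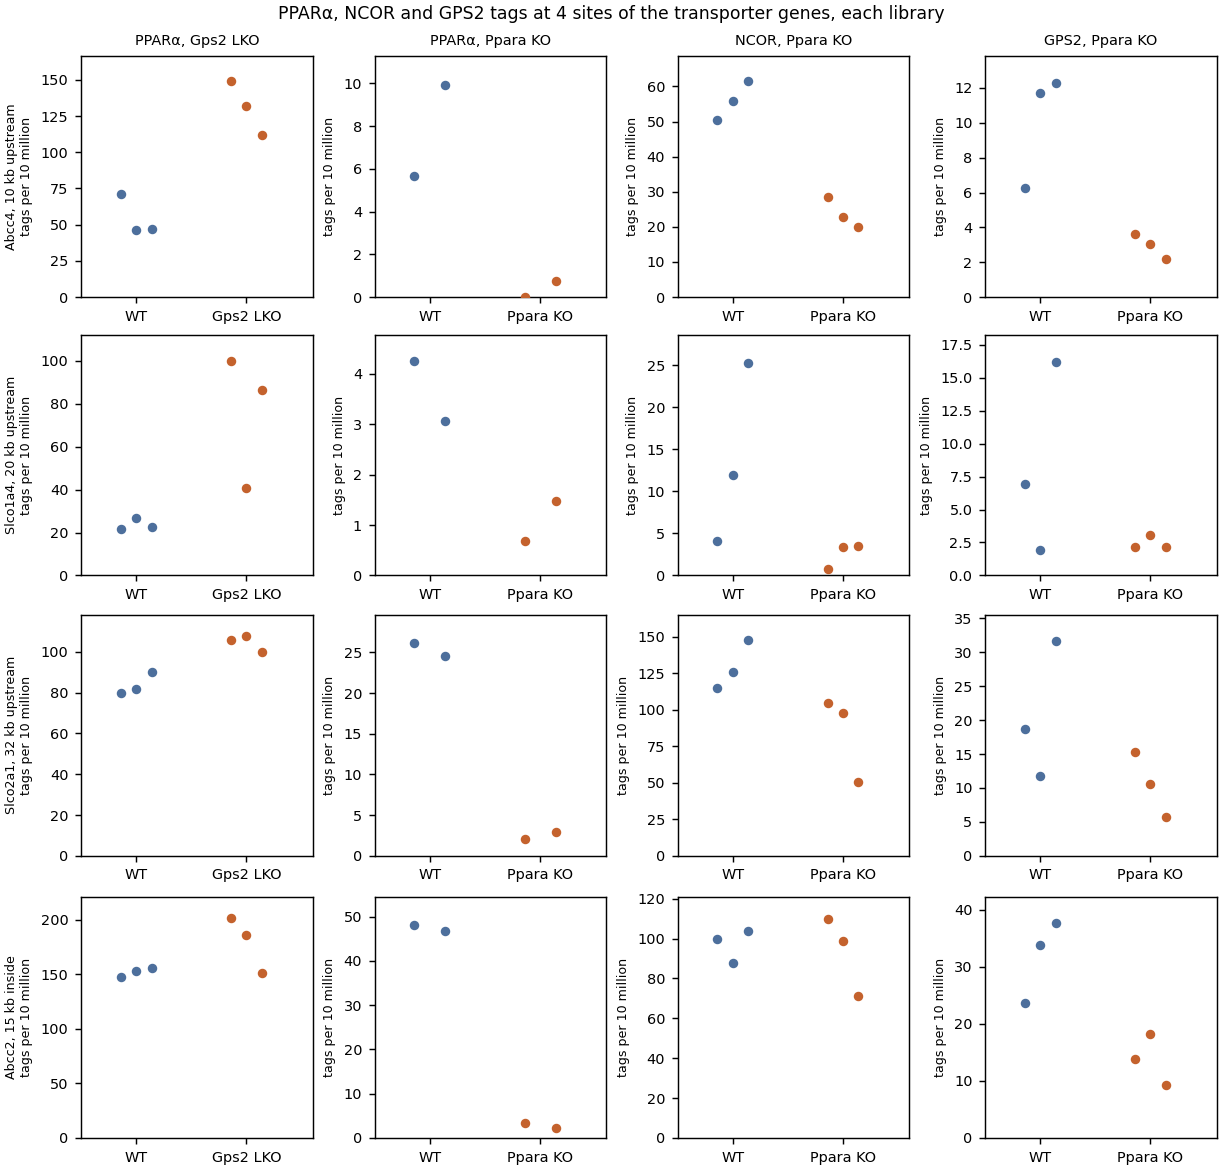
ChIP-seq tags per 10 M on the y axis from 0 at 4 sites (rows), for PPARα in Gps2 LKO, and for PPARα, NCOR and GPS2 in Ppara KO (columns), with 1 point for each WT (blue) and knockout (orange) library. NCOR at the Abcc4 site lies at 50.4 to 61.5 in WT and at 19.9 to 28.6 in KO. At the Abcc2 site in Ppara KO, NCOR overlaps between the groups while PPARα does not, and in Gps2 LKO PPARα overlaps there. The 3 WT libraries of PPARα in the Gps2 line count as 1 sample.

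GPS2 itself was lower on average at all 9 loci in Ppara KO and in Ncor LKO liver, but no peak or locus of the 9 genes passed the test. In Ppara KO, 0 of 41 peaks were called (12 at an unadjusted p under 0.05, 0 by DESeq2), against 0.273% of all peaks and 0.439% of all loci lower. Among all 27842 peaks, 6410 had an unadjusted p under 0.05. The log2 fold changes of the loci ran from -0.68 at Slco2a1 to -1.52 at Slco1a1 around the table's median of -0.89. At the Abcc2 site GPS2 was 23.6, 33.8 and 37.7 per 10 M in WT and 13.8, 18.2 and 9.37 in KO, with no overlap (adjusted p = 0.19). At the Abcc4 site it was 6.24, 11.7 and 12.3 against 3.64, 3.03 and 2.16 (adjusted p = 0.16). In Ncor LKO, 0 of 69 peaks were called (34 at an unadjusted p under 0.05, 0 by DESeq2), against 0.0338% of all peaks lower, and the loci ran from -1.06 at Abcc6 to -1.83 at Abcc2 (adjusted p = 0.062) around a median of -1.09, against 0.187% of all loci called lower. Among all 56278 peaks of this comparison, 19323 had an unadjusted p under 0.05. The outcome turned on WT replicate 3, described above. Without it 59 of the 69 peaks (85.5%) were lower, as were 33248 of all 56277 peaks (59.1%). All 9 loci were lower in that fit, as were 10748 of all 14433 loci (74.5%). At the Abcc2 site the values were 118, 55.7 and 18.8 in WT and 19.2, 20.7 and 10.9 in LKO. The Abcc3 promoter, at 23.2, 34.9 and 21.4 in WT and 2.46, 7.09 and 7.27 in LKO, kept the groups apart with that library included, but was not called. The groups were also apart at the printed Slco2a1 site, and over the Abcc2, Abcc3, Slco1a4 and Slco2a1 loci, and overlapped over the other loci. How often they are apart among all peaks or loci was not counted, and the median of all loci was itself -1.09.

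NCOR in Gps2 LKO and PPARα in Ncor LKO showed no called change at these genes. For NCOR in Gps2 LKO, 0 of 93 peaks were called (1 at an unadjusted p under 0.05, 0 by DESeq2), against 0.0124% of all peaks higher and 0.00495% lower, and the loci ran from -0.31 at Abcc6 to 0.36 at Abcc4 with SEs of 0.42 to 0.43, and none was called, against 0.0236% of all loci higher and 0.00589% lower. At the Abcc4 site the NCOR libraries held 28.5, 24.6 and 15.7 tags per 10 M in WT against 35.2, 49.3 and 21.2 in LKO, which overlap. For PPARα in Ncor LKO, 0 of 101 peaks were called (1 at an unadjusted p under 0.05, 0 by DESeq2), against 0.151% of all peaks higher and 0.0453% lower. The loci ran from -0.10 at Slco2a1 to 0.29 at Slco2b1 with SEs of 0.44 to 0.46, and none was called, against 0.0806% of all loci higher and 0.0230% lower. In the latter comparison WT replicate 3 had 8.96% of its tags in peaks and the other WT libraries 19.3 and 18.6%. Without it 0 of the 101 peaks (6 at an unadjusted p under 0.05) and 0 loci (0 at an unadjusted p under 0.05) were called by edgeR, and the loci ran from -0.37 to -0.01. Whether the PPARα change differs between the Gps2 and Ncor deletions was not tested.

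**Figure D4:**
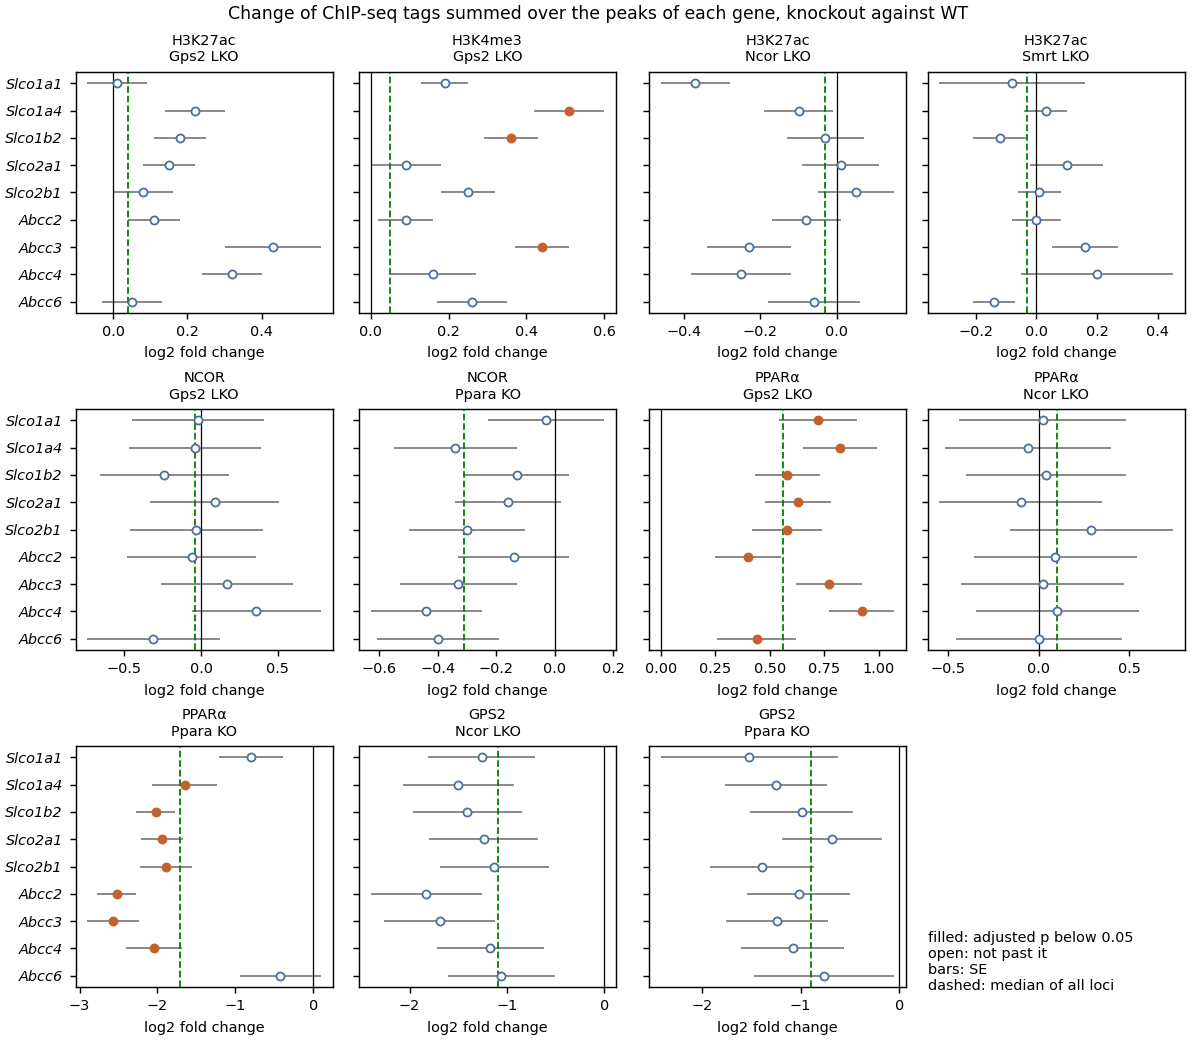
Log2 fold change of tags summed over the peaks of each gene (x axis), knockout against WT, for the 9 genes (rows) in 11 ChIP-seq comparisons (panels), with the SE as bars, filled points for an adjusted p below 0.05 and a dashed line at the median of all loci. The filled points are the 3 loci of H3K4me3, the 9 of PPARα in Gps2 LKO and the 7 of PPARα in Ppara KO, and in the PPARα panels the genes lie on both sides of the dashed line.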

How the data were processed

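RNA-seq and ChIP-seq of mouse liver were deposited as tables of counts. According to the study's methods, polyA RNA reads were aligned to mm9 with HISAT2 and tags in exons were counted with HOMER. The deposited table's title names Subread, and the submitters' processing notes list featureCounts, so the counter is not settled here, and strand use is not stated. ChIP-seq reads were aligned to mm9 with Bowtie, and the authors counted raw tags per HOMER peak in each library. The deposited values are raw counts with no normalization. Columns with the authors' own fold changes and p-values were not used. No version of the aligners is given in the labels or methods used. Tables of NCOR, GPS2 and PPARα were made separately for each line, with peaks of their own.

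Counts were tested with edgeR 4.0.16 (quasi-likelihood test, Benjamini-Hochberg adjustment over all genes, peaks or loci of a table, call at an adjusted p below 0.05). RNA was scaled with TMM and filtered with filterByExpr. ChIP-seq tags were scaled to the total tags of the library, as the methods of the study scaled peak heights, peaks needed at least 1 tag, and a locus is the sum over peaks with the same nearest gene. Values are given per 10 M (10000000) tags. Histone mark peaks of the Gps2 line had to overlap (at least 1 bp) a peak of that mark in 2 libraries. The deposited peak lists hold positions and a constant score of 1, and only the positions were used. Alternatives were TMM or RLE scaling, another filter, DESeq2 1.42.0, the replicate number as a block, removal of an exon length trend, and leaving out each library. Named peaks were the one nearest the start site within 1000 bp, the one with most tags and every called one. In simulated data, 200 of 200 genes changed 4-fold were recovered for the RNA comparison, among 12209 genes, with 13 false calls. Smaller changes were not simulated. The main tests did not pair samples by replicate number. The same-numbered RNA libraries had correlations of 0.02 to 0.12 between their deviations from the group means. In the Gps2 line the correlation was 0.18 for H3K27ac and 0.24 for H3K4me3. The 2 input libraries were not used here, and 1 gene of the lists is not reported by name. The genes and lists were chosen with earlier results of these data known. Sequences come from the NCBIM37 (mm9) genome, positions of genes from GENCODE M1.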

Additional observations from a re-analysis of the deposited data

How the results depend on the processing

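In simulated data with a dispersion of 0.05, 94% of peaks changed 4-fold were recovered for H3K27ac in Gps2 LKO and 100% for H3K27ac in Ncor LKO. False calls numbered 4 and 8. Only peaks above a minimum count were changed. Changes as small as those of the 9 genes were not simulated, so these shares do not tell whether such changes could be called. The ChIP-seq comparisons rest on 2 or 3 libraries a group, and counts of tags at single sites limit what could be called. Of the recomputed counts of members called, 468 stayed within 1.5 times the reported count and 58 did not. A count of 0 that remained 0 is among those that stayed, and many of the reported counts were 0. The 468 are therefore no measure of how stable the calls above 0 were. Of the recomputed log2 fold changes, 330 kept direction and call, 108 kept direction but lost the call, 3 gained it and 13 changed sign. The causes of the changes below were not tested.

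For RNA, removing the exon length trend gave 5 members higher. With 1 library left out, Slco2b1 ran from -0.04 (without LKO replicate 2) to 0.09 and Abcc6 from -0.06 (without LKO replicate 2) to 0.07, with -0.02 without LKO replicate 3, and by DESeq2 Abcc6 was -0.01. With TMM or RLE scaling, H3K4me3 gave 1 peak and 0 loci, NCOR in Ppara KO 2 peaks, GPS2 in Ncor LKO 2 loci, PPARα in Gps2 LKO 2 peaks and 1 locus, and PPARα in Ppara KO 3 peaks and 1 locus. With TMM, 0.657% of all H3K4me3 peaks were higher. Of all NCOR peaks in Ppara KO 1.05% were lower, and of all GPS2 loci in Ncor LKO 1.36%. DESeq2 gave 0 peaks and 1 locus for H3K4me3, 1 locus lower for H3K27ac in Ncor LKO, 0 peaks for NCOR in Ppara KO, and 0 peaks and 0 loci for PPARα in Gps2 LKO and in Ppara KO. By DESeq2, 0.765% of all H3K4me3 loci were higher, and 2.23% of all H3K27ac loci in Ncor LKO were lower. In PPARα of Gps2 LKO, the Abcc2 locus became -0.17 with TMM and -0.16 with RLE and DESeq2, and the Abcc6 locus -0.12 with each of these. In PPARα of Ppara KO, the Slco1a4 locus became 0.04 with TMM, 0.11 with RLE and 0.12 with DESeq2. A filter on low counts gave 2 peaks lower for NCOR in Ppara KO, 4 for GPS2 in Ncor LKO and 1 for GPS2 in Ppara KO. Of all peaks, 3.11%, 6.82% and 1.14% were lower in these fits. Testing all peaks of the shared table gave 0 for H3K4me3, against 0.0351% of all peaks higher.

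In no comparison with 3 or more pairs was every correlation between the deviations of same-numbered samples over 0.1. For NCOR in Ppara KO they were -0.02, 0.24 and 0.27. With 2 pairs, which give the same value, the correlation was 0.18 for H3K27ac and 0.24 for H3K4me3 in Gps2 LKO, and 0.01 for PPARα in Ppara KO. Whether the numbers pair samples in these comparisons is not settled. With the replicate number as a block, H3K27ac in Gps2 LKO gave 3 peaks and 2 loci higher. In that fit 4.23% of all peaks and 4.51% of all loci were higher. GPS2 in Ncor LKO gave 18 peaks and 3 loci lower with the block, as were 18.6% of all peaks and 19.1% of all loci. H3K27ac in Ncor LKO and PPARα in Ppara KO gave 0 peaks. A block with the 3 WT libraries of PPARα in Gps2 LKO kept separate, chosen after seeing the data, gave 60 peaks and 9 loci.

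Leaving out 1 library at a time gave 0 to 4 peaks higher, 0 to 1 lower and 0 to 1 loci for H3K27ac in Gps2 LKO, where the calls came without LKO replicate 1. It gave 0 to 3 peaks and 0 to 2 loci for H3K4me3, 0 to 1 peaks and 0 to 1 loci for H3K27ac in Ncor LKO, and 1 to 4 peaks for NCOR in Ppara KO. It gave 0 to 59 peaks and 0 to 9 loci for GPS2 in Ncor LKO, 21 to 49 peaks and 5 to 9 loci for PPARα in Gps2 LKO, and 0 to 18 peaks for PPARα in Ppara KO. For GPS2 in Ncor LKO the highest counts came without WT replicate 3, where 59.1% of all peaks and 74.5% of all loci were lower. The difference between the Ncor and Smrt effects had 0 to 1 peaks, the 1 without Smrt WT replicate 3. Where a group was left with 1 library, that library was assumed to vary like the other group.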
